A study of Danio rerio with 6 samples.

Results

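The comparison asks in which genes osteogenic mesenchymal progenitors (OMP) of the regenerating zebrafish tail fin stand apart from both chondrogenic mesenchymal progenitors (CMP) and osteoblasts, instead of lying between them. Cells were sorted by fluorescence from adult caudal fins 14 days post amputation, and RNA was sequenced from 2 libraries of each of the 3 groups. All groups carried the same transgenes. They were cryaa:EGFP, which labels the lens, with sox9a:Cre-ERt2, a Cre under sox9a control that an oestrogen receptor ligand activates. The reporter Ola.Actb:loxp-TagBFP-loxp-EGFP changes from TagBFP to EGFP after recombination, and Ola.Sp7:mCherry puts mCherry under control of medaka sp7. By their titles, CMP were EGFP+/sp7-, OMP EGFP+/sp7+ and osteoblasts EGFP-/sp7+. All 6 libraries entered 1 model, and the contrast reported is the log2 level in OMP minus the mean of the log2 levels in CMP and in osteoblasts. Of 13399 genes tested out of 30841 measured, 348 were called in that contrast (edgeR quasi-likelihood test, Benjamini-Hochberg adjusted p under 0.05) and had both OMP libraries outside the range of all 4 other libraries. OMP was the highest group in 283 of them and the lowest in 65.

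Fin rays are bones laid down by osteoblasts beneath the epidermis, with mesenchyme (fibroblasts) in the core of the ray. After amputation both tissues contribute to a blastema, and new rays are patterned by Wnt, BMP, FGF, Hedgehog and retinoic acid signals together with the secreted inhibitors of these signals. The factor sp7 (osterix) directs osteoblast maturation, whereas sox9a is needed for cartilage and its precursors.

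The sorted groups were first set against the sort markers. Endogenous sp7 was intermediate, with 10.4 and 8.45 CPM in OMP, against 1.99 and 2.18 in CMP and 161 and 175 in osteoblasts. Sox9a was high in CMP alone, with 10.9 and 7.17 CPM in OMP, against 54.1 and 38.1 in CMP and 12.1 and 7.79 in osteoblasts. Neither gene was called in the contrast (adjusted p = 0.186 and 0.164, edgeR), although sox9a was with the replicate number as a block (adjusted p = 0.0228). The reporters went against the titles: mCherry had 6 and 62 reads in OMP, close to the 3 and 47 in CMP and far below the 2455 and 8136 in osteoblasts, and the osteoblast libraries held 2434 and 4146 EGFP reads, against 3225 and 6998 in OMP. The TagBFP-NTR transgene had 56 and 319 reads in OMP, 287 and 1233 in CMP and 67 and 192 in osteoblasts. The sample descriptions read Mes-G and Mes-G2 for CMP, Ob-G and Ob-G2 for OMP, and Ob-GR and Ob-GR2 for osteoblasts. The conflict between the titles and the reporter reads was not resolved. OMP and osteoblast therefore stand below for the libraries so titled. The libraries held 3915569 to 5281896 reads after 1 transcript was kept per gene. Heat shock genes named hsp (16 genes) took 15.2% to 18.7% of reads in the libraries of replicate 1 and 6.9% to 10.4% in those of replicate 2, so they moved with the replicate number and not with the group. The labels do not say whether replicates came from different fish, so the p-values measure the spread between these libraries only. Levels are CPM, counts scaled to library size after TMM normalization. In bulk samples such as these fewer cells of a type and less RNA per cell cannot be told apart.

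Most genes did not place OMP outside the other groups. The contrast called 471 genes (3.52% of those tested), 365 higher in OMP (2.72%) and 106 lower (0.791%). OMP lay above all 4 other libraries in 1018 genes (7.6%) and below them in 716 (5.34%). Position alone is not a test, since random order of the libraries would also put both OMP libraries outside in a share of genes. That share was not computed, so the counts by position alone are not read as a result about OMP. A call and a position outside held together in 283 genes above (2.11%) and 65 below (0.485%), and the other 123 called genes had OMP inside the range. Among the 283, the median log2 contrast was 2.36 and the median distance to the nearer group 1.33, and 204 were at least 2-fold above the nearer group. Among the 65 the medians were -2.29 and -1.35, and 51 were at least 2-fold below it. CMP was the nearer group for 230 of the 283 and for 49 of the 65. The log2 contrast over all genes tested had a median of 0.03.

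A stricter count asked that OMP differ from each group in its own test. OMP against CMP called 253 genes (1.89%) and OMP against osteoblasts 1087 (8.11%), and both tests called 53 genes higher in OMP (0.396%) and 14 lower (0.104%). Of the 283 genes above, 191 were called against osteoblasts only, 20 against CMP only and 19 in neither pairwise test. Of the 65 below, 44 were called against osteoblasts only and 7 against CMP only. A further 63 genes were called in both tests with opposite signs, which places OMP between the groups.

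These counts depend on the replicate number and on single libraries. With the replicate number as a block, since same-numbered libraries deviated together, the counts rose to 440 above, 136 below, 200 higher in both pairwise tests and 57 lower in both. Without CMP replicate 1 none of the 67 genes called in both pairwise tests was still called in both, and without CMP replicate 2 only 2 were. The test against CMP called 0 of the 67 without CMP replicate 1 and 2 without CMP replicate 2, whereas the test against osteoblasts called 61 in either case. Without OMP replicate 1 or 2, 28 and 31 of the 67 were still called, and without osteoblast replicate 1 or 2, 50 and 45. Of the 348 genes, 187 and 211 were called and outside without CMP replicate 1 or 2, 189 and 185 without OMP replicate 1 or 2, and 272 and 248 without osteoblast replicate 1 or 2.

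**Figure D1:**
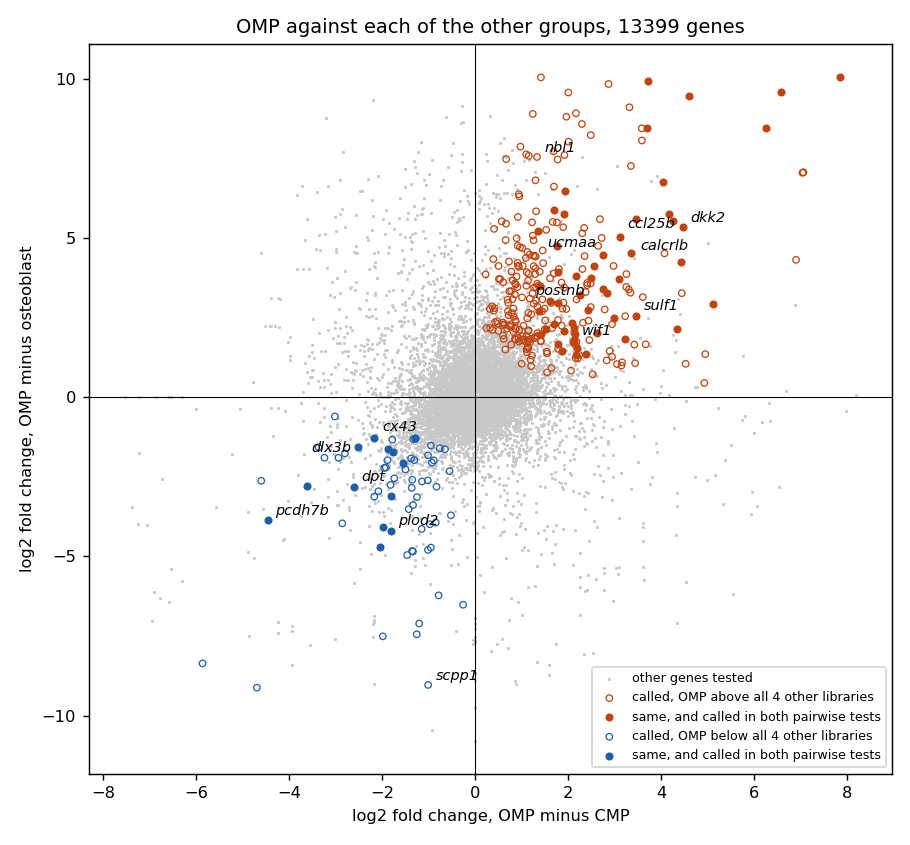
Each point is 1 of 13399 genes, with the log2 fold change of OMP against CMP on the x axis and of OMP against osteoblasts on the y axis. Red points are the 283 called genes with OMP above all 4 other libraries and blue points the 65 with OMP below them; filled points, 53 and 14, were called in both pairwise tests.

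The 14 genes highest in OMP by distance to the nearer group, among those at a mean log2 CPM of at least 3, were calcrlb, ccl25b, vmo1a, ucmaa, fgl1, sulf1, grem2b, postnb, fibina, kctd1, pcdh10b, ca6, angptl1a and tpbga. Of these, 11 were called in both pairwise tests. The ranking used the smaller pairwise fold change, here and for the 14 lowest genes below. Pairwise calls within either set are therefore not separate support. That the OMP libraries lay outside all others was also set by the choice.

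Calcrlb, a receptor of the calcitonin receptor-like family that binds adrenomedullin and related peptides in mammals, had 61.6 and 55.0 CPM in OMP, against 5.96 and 5.35 in CMP and 1.64 and 3.21 in osteoblasts. The contrast of calcrlb was 3.94 (SE 0.34, adjusted p = 0.00048). Its OMP libraries stood close together and far above the rest. The chemokine gene ccl25b had 797 and 857 CPM in OMP, against 57.4 and 133 in CMP and 28.1 and 22.7 in osteoblasts. The contrast of ccl25b was 4.07 (SE 0.32, adjusted p = 0.000354). The log2 fold change of ccl25b was 3.11 (adjusted p = 0.00633) against CMP and 5.03 (adjusted p = 0.000111) against osteoblasts. Fgl1, a fibrinogen-like secreted protein made mainly by the liver in mammals, had 195 and 182 CPM in OMP, against 25 and 31.1 in CMP and 19.6 and 16.3 in osteoblasts. The contrast of fgl1 was 3.07 (SE 0.25, adjusted p = 0.000387). Both OMP libraries of fgl1 lay well above the 4 others, whose levels were alike.

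Matrix genes of high abundance were among the highest. Postnb encodes a periostin, a matrix protein of ligament, periosteum and healing tissue, and had 6294 and 9372 CPM in OMP, against 1371 and 1391 in CMP and 661 and 518 in osteoblasts. The contrast of postnb was 3.12 (SE 0.24, adjusted p = 0.000283). Ucmaa encodes a vitamin K-dependent protein of cartilage matrix and had 2523 and 3291 CPM in OMP, against 405 and 456 in CMP and 109 and 151 in osteoblasts. The contrast of ucmaa was 3.62 (SE 0.24, adjusted p = 0.00018). For both genes CMP stood above osteoblasts without overlap, whereas OMP above CMP was part of how the genes were chosen. Sulf1, an extracellular enzyme that removes sulfate groups from heparan sulfate and so alters the binding of several growth factors, had 665 and 375 CPM in OMP, against 57.4 and 36.6 in CMP and 106 and 71.0 in osteoblasts. The contrast of sulf1 was 3.01 (SE 0.31, adjusted p = 0.000934). In sulf1 the order was reversed for the other groups, with osteoblasts above CMP.

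Fibina is named for its role in starting the zebrafish pectoral fin bud, and it had 75.8 and 189 CPM in OMP, against 10.8 and 22.4 in CMP and 21.3 and 26.1 in osteoblasts. The contrast of fibina was 2.73 (SE 0.40, adjusted p = 0.00461). Tpbga, a membrane glycoprotein that inhibits Wnt signalling in zebrafish, had 92.5 and 117 CPM in OMP, against 23.9 and 25.8 in CMP and 20.3 and 21.3 in osteoblasts. The contrast of tpbga was 2.203 (SE 0.26, adjusted p = 0.00166). Angptl1a, a secreted angiopoietin-like protein, had 399 and 349.6 CPM in OMP, against 74.0 and 96.4 in CMP and 73.3 and 91.9 in osteoblasts. The contrast of angptl1a was 2.16 (SE 0.24, adjusted p = 0.00121). In these 3 genes CMP and osteoblasts had similar levels, so OMP differed from both by about the same amount. Kctd1 had 32.6 and 22.3 CPM in OMP, against 3.75 and 6.19 in CMP and 3.60 and 4.35 in osteoblasts. The contrast of kctd1 was 2.59 (SE 0.39, adjusted p = 0.00557).

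The other 3 genes were not called without OMP replicate 1, the higher of their OMP libraries. Vmo1a had 270.0 and 33.8 CPM in OMP, against 16.3 and 21.8 in CMP and 17.3 and 1.15 in osteoblasts and was not called once replicate 1 of CMP (adjusted p = 0.154), replicate 2 of CMP (0.131) or replicate 1 of OMP (0.482) was left out. Pcdh10b, a protocadherin, had 58.0 and 15.9 CPM in OMP, against 5.08 and 8.37 in CMP and 3.93 and 2.52 in osteoblasts and was not called once replicate 1 of CMP (adjusted p = 0.0602) or replicate 1 of OMP (0.164) was left out. Ca6, a secreted carbonic anhydrase, had 67.8 and 23.1 CPM in OMP, against 5.74 and 5.86 in CMP and 2.29 and 15.12 in osteoblasts and was not called once replicate 1 of CMP (adjusted p = 0.129), replicate 2 of CMP (0.127) or replicate 1 of OMP (0.311) was left out. In all 3 the OMP libraries differed from each other by more than 2-fold, as they also did in fibina and grem2b, where replicate 2 was the higher.

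**Figure D2:**
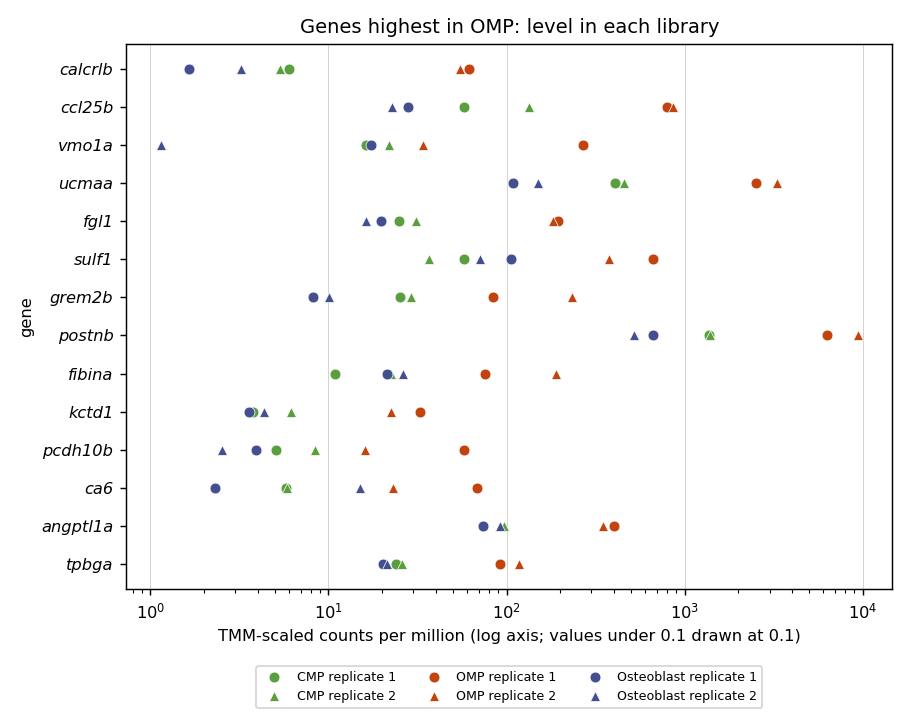
TMM-scaled CPM on a log axis for the 14 genes highest in OMP by distance to the nearer group, 1 row per gene and 1 point per library (circles replicate 1, triangles replicate 2). The genes were chosen for having both OMP points (red) to the right of all 4 other points. In vmo1a, pcdh10b, ca6, grem2b and fibina the OMP points lie far apart.

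The list counts from here on stand beside 2.72% of all genes tested called higher and 0.791% called lower. Up to 4 members of each list were named because they were called with OMP outside all other libraries. That position is therefore not separate support for them. Inhibitors of Wnt signalling, most of them secreted and the others membrane or intracellular proteins, were tested in 19 genes, of which 7 were higher in OMP, 1 was lower and 11 were not called (median log2 contrast 0.41). OMP was above all other libraries in 5 of the 7, and 4 of these (dkk2, wif1, sfrp2 and notum1b) were called in both pairwise tests. Dkk2 passed the filter on low counts only through its OMP libraries. So did, for example, adamtsl7, kcnip3a, scxb and ngfra below, and the calls of such genes are not separate support. Without OMP replicate 1 the list held 5 calls instead of 8. Dkk2, which binds the LRP co-receptors of Wnt, had 22.2 and 13.1 CPM in OMP, against 0.662 and 0.837 in CMP and 0.327 and 0.458 in osteoblasts. The contrast of dkk2 was 4.90 (SE 0.52, adjusted p = 0.000609). Its 163 OMP reads against 3 in osteoblasts correspond to a ratio of 40.6 (exact 95% counting interval 13.6 to 199.0). Wif1, which binds Wnt proteins directly, had 1248 and 740.4 CPM in OMP, against 286 and 165 in CMP and 351 and 223 in osteoblasts. The contrast of wif1 was 1.97 (SE 0.31, adjusted p = 0.00715), and was not called once replicate 1 of OMP (adjusted p = 0.0688) was left out. In wif1 the CMP and osteoblast libraries overlapped, and OMP above them was part of how the gene was chosen.

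Sfrp2, a soluble protein with a frizzled-like Wnt-binding domain, had 1023 and 1199 CPM in OMP, against 339 and 508 in CMP and 101.4 and 98.1 in osteoblasts. The contrast of sfrp2 was 2.43 (SE 0.24, adjusted p = 0.00076). Notum1b, an enzyme that removes the lipid that Wnt proteins need for activity, had 265 and 220.1 CPM in OMP, against 82.8 and 104 in CMP and 40.2 and 34.8 in osteoblasts. The contrast of notum1b was 2.03 (SE 0.24, adjusted p = 0.0017). In these 2 genes CMP was the nearer group, with log2 fold changes of 1.39 (adjusted p = 0.0417) for sfrp2 and 1.37 (adjusted p = 0.0485) for notum1b. Sfrp1b had 159 and 58.6 CPM in OMP, against 49.5 and 37.6 in CMP and 1.31 and 2.29 in osteoblasts. The contrast of sfrp1b was 3.57 (SE 0.43, adjusted p = 0.0018), and its lower OMP library stood close to the higher CMP library. Against CMP the log2 fold change of sfrp1b was 1.31 (adjusted p = 0.256, or 0.0455 with the replicate block). Sost, the sclerostin gene, and sfrp1a were also called higher, but with OMP inside the range of the other libraries.

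Dkk1a moved the other way: this inhibitor, of the same family as dkk2, had 2.19 and 1.43 CPM in OMP, against 6.404 and 8.37 in CMP and 14.1 and 13.3 in osteoblasts. The contrast of dkk1a was -2.52 (SE 0.53, adjusted p = 0.0298), and it was not called whichever library was left out (adjusted p from 0.0564 to 0.303). Of 13 Wnt ligands and R-spondins 1 was called, wnt16, a ligand linked to bone mass in mammals (list median 0.78). Wnt16 had 15 and 13.4 CPM in OMP, against 0.883 and 0.502 in CMP and 2.62 and 3.67 in osteoblasts. The contrast of wnt16 was 3.24 (SE 0.47, adjusted p = 0.00421), and OMP was above each other group, with log2 fold changes of 4.35 (adjusted p = 0.00941) against CMP and 2.14 (adjusted p = 0.0345) against osteoblasts. With the replicate block 5 ligand or R-spondin genes were called higher.

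Inhibitors and modulators of BMP signalling, which drives bone and cartilage formation, gave 8 genes higher and 2 lower among 22 tested (median log2 contrast 1.16). Summed over the list, OMP had 4918 and 4941 CPM, inside the range of CMP at 4639 and 5270. Osteoblasts had 2175 and 2273. OMP was above all other libraries for grem1b, grem2b, nbl1, fstb, smoc1 and smoc2, and below them for bambia and bambib. Grem2b, a gremlin that traps BMP ligands, had 84.0 and 234 CPM in OMP, against 25.2 and 28.9 in CMP and 8.18 and 10.1 in osteoblasts. The contrast of grem2b was 3.33 (SE 0.38, adjusted p = 0.00137), and grem2b was the only gene of the list called in both pairwise tests, with log2 fold changes of 2.56 (adjusted p = 0.0232) against CMP and 4.11 (adjusted p = 0.000927) against osteoblasts. Nbl1, of the same DAN family, had 427 and 511 CPM in OMP, against 145 and 228 in CMP and 3.93 and 1.37 in osteoblasts. The contrast of nbl1 was 4.44 (SE 0.33, adjusted p = 0.000283). Fstb, a follistatin that binds activins and BMPs, had 152 and 149 CPM in OMP, against 61.6 and 60.4 in CMP and 8.83 and 5.50 in osteoblasts. The contrast of fstb was 2.86 (SE 0.27, adjusted p = 0.000645). For nbl1 and fstb osteoblasts were far below CMP, and OMP exceeded CMP by log2 fold changes of 1.33 (adjusted p = 0.105, or 0.00745 with the replicate block) and 1.30 (adjusted p = 0.0731, or 0.00441 with the replicate block).

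Smoc2, a calcium-binding matrix protein related to SPARC, had 119 and 179 CPM in OMP, against 46.2 and 75.0 in CMP and 8.83 and 9.17 in osteoblasts. The contrast of smoc2 was 2.67 (SE 0.30, adjusted p = 0.00129). Its relative smoc1 had 239.9 and 179 CPM in OMP, against 95.2 and 79.0 in CMP and 33.7 and 5.96 in osteoblasts. The contrast of smoc1 was 2.35 (SE 0.46, adjusted p = 0.0207) and was not called once replicate 1 of CMP (adjusted p = 0.0826), replicate 2 of CMP (0.0948) or replicate 1 of OMP (0.0954) was left out. Both smoc genes had CMP between osteoblasts and OMP. Grem1b had no read in osteoblasts and 182 in OMP, which is at least 45.3-fold higher against a floor of 3 reads over the group. This bound is against osteoblasts only, and grem1b was not called in both pairwise tests. Chrdl2, a chordin-like protein, and htra1b were called higher, but in neither did OMP lie above CMP.

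Bambia and bambib encode membrane pseudoreceptors that block BMP and TGF-beta signalling and that BMP signalling itself induces in other systems. Bambia had 105 and 60.4 CPM in OMP, against 151 and 163 in CMP and 372 and 315 in osteoblasts. The contrast of bambia was -1.49 (SE 0.30, adjusted p = 0.0223) and was not called once replicate 1 of CMP (adjusted p = 0.0731), replicate 2 of CMP (0.0826) or replicate 2 of OMP (0.235) was left out. Bambib had 23.0 and 20.6 CPM in OMP, against 39.7 and 37.5 in CMP and 139 and 166 in osteoblasts. The contrast of bambib was -1.82 (SE 0.29, adjusted p = 0.00672) and was not called once replicate 2 of OMP (adjusted p = 0.0797) was left out. In both genes osteoblasts were highest and OMP was the lowest group, but neither was called against CMP in the fit without the block: the log2 fold changes were -0.93 (adjusted p = 0.258, or 0.0323 with the replicate block) and -0.83 (adjusted p = 0.307). Of 19 BMP ligands and receptors, bmp8a alone was called (list median -0.45), with OMP between the groups at 6.02 and 7.49 CPM in OMP, against 1.32 and 1.17 in CMP and 289.9 and 370.3 in osteoblasts; the call was lost whichever library was left out (adjusted p from 0.062 to 0.227). Of 14 genes that respond to BMP none was called by edgeR (4 at an unadjusted p under 0.05, 2 lower with the replicate block, and 1 lower by DESeq2).

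Both called genes of tetrahydrobiopterin metabolism were highest in OMP. Of 7 genes of monoamine and tetrahydrobiopterin metabolism tested, 3 were called, all higher (median log2 contrast 2.27, or 1.56 with a gene that had no osteoblast read set at its bound). Pcbd1 and qdpra regenerate tetrahydrobiopterin, an enzyme cofactor. Pcbd1 had 303 and 439 CPM in OMP, against 98.7 and 144 in CMP and 35.3 and 55.0 in osteoblasts. The contrast of pcbd1 was 2.32 (SE 0.28, adjusted p = 0.00194). Qdpra had 103 and 97.5 CPM in OMP, against 39.7 and 66.3 in CMP and 6.87 and 4.12 in osteoblasts. The contrast of qdpra was 2.57 (SE 0.32, adjusted p = 0.00206). In both genes CMP stood above osteoblasts without overlap, whereas OMP above CMP was part of how the genes were chosen.

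Against CMP the log2 fold change was 1.61 (adjusted p = 0.0491) for pcbd1 and 0.92 (adjusted p = 0.348) for qdpra. Outside that list, slc16a10, a transporter of aromatic amino acids, was the single gene both called and above all other libraries among 200 solute carriers, of which 2 were called higher and 2 lower (list median -0.03). Over all genes tested the shares were 2.72% higher and 0.791% lower, so the solute carriers did not stand out as a list. Slc16a10 had 343 and 271 CPM in OMP, against 109 and 103 in CMP and 77.2 and 62.3 in osteoblasts. The contrast of slc16a10 was 1.84 (SE 0.24, adjusted p = 0.00242). The third called gene of the monoamine and tetrahydrobiopterin list, the serotonin transporter slc6a4a, was not outside: it had 19.97 and 14.8 CPM in OMP, against 73.8 and 83.3 in CMP and 0 and 0 in osteoblasts. OMP was at least 41.3-fold above osteoblasts for slc6a4a but below CMP, and the call was lost whichever library was left out (adjusted p from 0.089 to 0.176).

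**Figure D3:**
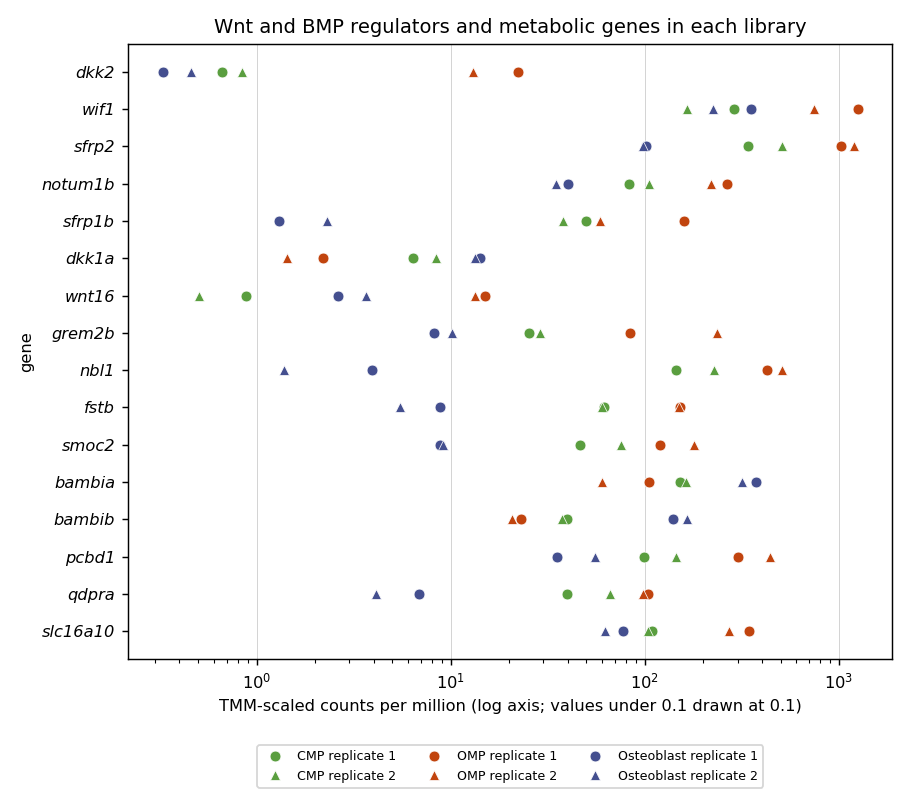
TMM-scaled CPM on a log axis for Wnt and BMP regulators and for pcbd1, qdpra and slc16a10, 1 row per gene and 1 point per library (circles replicate 1, triangles replicate 2). Only genes with OMP outside the range of the other libraries are drawn. OMP points (red) lie to the right of all others except in dkk1a, bambia and bambib, where they lie to the left.

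Genes of retinoic acid handling gave 4 calls among 20, all higher (median log2 contrast 0.53), and OMP was above all others for crabp1b, rdh10a and crabp2b. Between 2 and 3 calls of this list remained without any 1 library. Crabp1b, a cytoplasmic carrier of retinoic acid, had 319 and 477 CPM in OMP, against 104 and 142 in CMP and 73.9 and 86.2 in osteoblasts. The contrast of crabp1b was 2.003 (SE 0.26, adjusted p = 0.0025). It was called in both pairwise tests, with log2 fold changes of 1.69 (adjusted p = 0.0268) against CMP and 2.31 (adjusted p = 0.00168) against osteoblasts. Rdh10a, which makes the retinaldehyde precursor of retinoic acid, had 41.9 and 41.4 CPM in OMP, against 20.5 and 16.4 in CMP and 0.654 and 2.75 in osteoblasts. The contrast of rdh10a was 2.83 (SE 0.39, adjusted p = 0.00336). Crabp2b had 253 and 219 CPM in OMP, against 169 and 164 in CMP and 74.9 and 37.1 in osteoblasts. The contrast of crabp2b was 1.29 (SE 0.29, adjusted p = 0.04) and was not called once replicate 1 of CMP (adjusted p = 0.138), replicate 2 of CMP (0.149), replicate 1 of OMP (0.211), replicate 2 of OMP (0.117) or replicate 2 of osteoblasts (0.104) was left out. The log2 fold change of crabp2b was 0.50 (adjusted p = 0.7645) against CMP and 2.08 (adjusted p = 0.00556) against osteoblasts. Rdh10a was not called in both pairwise tests either. The copy crabp2a, by contrast with crabp2b, had OMP between the groups.

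Other signalling lists gave few calls. Among 28 genes of FGF signalling, sulf1 and fgf16 were higher with OMP above the others, and fgfr3 was lower with OMP inside the range (list median 0.37, or 0.16 with genes that had no read in a group set at their bound). Only sulf1 of this list was called in both pairwise tests. Fgf16 had 62 reads in OMP and none in osteoblasts, at least 15.4-fold higher, and was not called whichever library was left out (adjusted p from 0.0818 to 0.208). Among 24 TGF-beta genes, the receptor tgfbr2b had 50.1 and 41.9 CPM in OMP, against 119 and 67.1 in CMP and 309.9 and 252 in osteoblasts. Against CMP the log2 fold change of tgfbr2b was -1.02 (adjusted p = 0.234). The contrast of tgfbr2b was -1.82 (SE 0.32, adjusted p = 0.0121) and was not called once replicate 1 of OMP (adjusted p = 0.059) or replicate 2 of OMP (0.117) was left out. Tgfbr3, a co-receptor that presents TGF-beta, had 15.6 and 11.5 CPM in OMP, against 4.42 and 5.35 in CMP and 2.62 and 1.60 in osteoblasts. The contrast of tgfbr3 was 2.07 (SE 0.44, adjusted p = 0.0328) and was not called whichever library was left out (adjusted p from 0.0575 to 0.176).

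The Hedgehog list of 16 genes had 1 call, for hhip, which binds Hedgehog proteins and is itself their target. Hhip had 18.6 and 15.3 CPM in OMP, against 11.5 and 12.2 in CMP and 0.982 and 0.917 in osteoblasts. The contrast of hhip was 2.31 (SE 0.42, adjusted p = 0.0123) and was not called once replicate 1 of CMP (adjusted p = 0.0516), replicate 1 of OMP (0.0786) or replicate 2 of osteoblasts (0.0675) was left out. The Notch ligand dll4, the single call among 18 Notch genes, had 29.0 and 17.2 CPM in OMP, against 15.9 and 10.4 in CMP and 2.29 and 2.98 in osteoblasts. The contrast of dll4 was 1.94 (SE 0.41, adjusted p = 0.0309) and was not called once replicate 1 of CMP (adjusted p = 0.0641), replicate 2 of CMP (0.105), replicate 1 of OMP (0.229), replicate 1 of osteoblasts (0.0778) or replicate 2 of osteoblasts (0.0773) was left out. Igfbp7, the single call among 18 genes of IGF signalling, had 43.8 and 60.4 CPM in OMP, against 26.5 and 30.3 in CMP and 11.1 and 9.17 in osteoblasts. The contrast of igfbp7 was 1.62 (SE 0.30, adjusted p = 0.0142) and was not called once replicate 1 of CMP (adjusted p = 0.0731), replicate 2 of CMP (0.0583), replicate 2 of OMP (0.167) or replicate 2 of osteoblasts (0.0538) was left out. No gene of the TGF-beta, Hedgehog, Notch and IGF lists was called in both pairwise tests. With the replicate block the calls of these lists and of the FGF list rose. They went from 3 to 7 for FGF, from 3 to 6 for TGF-beta, from 1 to 4 for Hedgehog, from 1 to 3 for Notch and from 1 to 5 for IGF.

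By number, collagens gave the most calls of the 48 lists: 15 of 44 were higher and 6 lower (median log2 contrast 1.13, or 0.83 with genes that had no read in a group at their bound). This number depends on list size, and the osteoblast list had 14 calls among 29 genes. Over all genes tested, 2.72% were called higher and 0.791% lower. OMP was above all others for 10, which were col5a3b, col6a4a, col16a1, col7a1, col6a1, col6a2, col2a1b, col5a2a, col18a1a and col11a1a. The list held 13 calls without CMP replicate 1, 11 without CMP replicate 2 and 11 without OMP replicate 1, instead of 21. Col5a3b, a fibril-regulating collagen of type V, had 295 and 207 CPM in OMP, against 70.22 and 61.6 in CMP and 4.91 and 1.15 in osteoblasts. The contrast of col5a3b was 4.20 (SE 0.36, adjusted p = 0.00048), and the gene was called in both pairwise tests, with log2 fold changes of 1.93 (adjusted p = 0.0426) against CMP and 6.47 (adjusted p = 8.7e-05) against osteoblasts. Col6a4a, of the microfibrillar type VI, had 475 and 493 CPM in OMP, against 231 and 273 in CMP and 2.62 and 8.48 in osteoblasts. The contrast of col6a4a was 3.66 (SE 0.32, adjusted p = 0.00048). Col16a1, a fibril-associated collagen, had 973 and 689 CPM in OMP, against 538 and 411 in CMP and 71.7 and 58.9 in osteoblasts. The contrast of col16a1 was 2.24 (SE 0.24, adjusted p = 0.00119). In these 3 genes osteoblasts were the lowest group. That OMP was the highest was part of how they were chosen. Col6a4a and col16a1 were not called against CMP in the edgeR fit without the block. Their log2 fold changes were 0.94 (adjusted p = 0.32) and 0.81 (adjusted p = 0.284).

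Col7a1, the anchoring fibril collagen, had 484 and 336 CPM in OMP, against 116 and 62.1 in CMP and 182 and 100.8 in osteoblasts. The contrast of col7a1 was 1.87 (SE 0.33, adjusted p = 0.0118), and with col5a3b it was one of 2 collagens higher in both pairwise tests, with log2 fold changes of 2.203 (adjusted p = 0.0257) against CMP and 1.54 (adjusted p = 0.0436) against osteoblasts. The contrast call of col7a1 was lost once replicate 2 of CMP (adjusted p = 0.0501) or replicate 1 of OMP (0.0972) was left out. The type VI genes col6a1 and col6a2 had log2 contrasts of 1.72, adjusted p = 0.00203 and 1.68, adjusted p = 0.00252. Neither was called against CMP in the edgeR fit without the block, with log2 fold changes of 0.79 (adjusted p = 0.209) and 0.83 (adjusted p = 0.191). Of the cartilage collagens, col2a1b had 1348 and 812 CPM in OMP, against 451 and 435 in CMP and 351 and 232 in osteoblasts. The contrast of col2a1b was 1.59 (SE 0.27, adjusted p = 0.01) and was not called once replicate 1 of CMP (adjusted p = 0.0521), replicate 2 of CMP (0.0518) or replicate 1 of OMP (0.115) was left out. Col11a1a had 120.4 and 109 CPM in OMP, against 51.2 and 53.0 in CMP and 31.7 and 34.1 in osteoblasts. The contrast of col11a1a was 1.47 (SE 0.24, adjusted p = 0.00935) and was not called once replicate 1 of CMP (adjusted p = 0.0542) or replicate 1 of OMP (0.081) was left out. Of the 6 lower collagens, col27a1a was below all other libraries, whereas col5a2b, col10a1a, col10a1b, col11a1b and col11a2 had osteoblasts far above and OMP inside the range.

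Among 13 cartilage genes 3 were higher and 3 lower, with all 3 higher genes (ucmaa, col2a1b and col11a1a) above the other libraries (median 0.56). This list held 3 calls without CMP replicate 1, 2 without CMP replicate 2 and 3 without OMP replicate 1. Among 13 small leucine-rich proteoglycans, which bind collagen fibrils, 3 were above and 2 below all others (median 0.09). Dcn, the decorin gene, had 2450.1 and 2690.3 CPM in OMP, against 1684 and 2012 in CMP and 515 and 467 in osteoblasts. The contrast of dcn was 1.43 (SE 0.21, adjusted p = 0.00461). Podn had 15.6 and 28.4 CPM in OMP, against 9.72 and 14.1 in CMP and 0.654 and 0.687 in osteoblasts. The contrast of podn was 2.94 (SE 0.46, adjusted p = 0.00521) and was not called once replicate 2 of OMP (adjusted p = 0.0644) was left out. Kera, a keratan sulfate proteoglycan known from cornea and tendon, had 17 and 14.7 CPM in OMP, against 7.29 and 2.68 in CMP and 0 and 0.229 in osteoblasts. The contrast of kera was 4.16 (SE 0.67, adjusted p = 0.0066). The 154 OMP reads of kera against 1 in osteoblasts give a ratio of 115 (exact 95% counting interval 20.3 to 4570.0). In dcn, podn and kera OMP stood above osteoblasts, while against CMP the log2 fold changes were 0.48 (adjusted p = 0.586), 0.90 (adjusted p = 0.521) and 1.70 (adjusted p = 0.214, or 0.0471 with the replicate block) in the same order.

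Of 14 tendon and ligament genes, scxb and kera were above all others (median 0.38, 4 higher, 1 lower and 9 not called), and the list held 2 or 3 calls without any 1 library. The lower gene was tnmd (log2 contrast -1.75). In tnmd and in the other higher genes, tnc and col14a1a, OMP lay inside the range of the other libraries. Scxb, the tendon transcription factor scleraxis, had 6.29 and 4.30 CPM in OMP, against 0.442 and 0.335 in CMP and 1.64 and 1.60 in osteoblasts. The contrast of scxb was 2.67 (SE 0.60, adjusted p = 0.0346) and was not called whichever library was left out (adjusted p from 0.0917 to 0.194). Of 14 genes of the fin ray joint, the lubricins prg4a and prg4b were above and cx43 and dlx5a below all others (median -0.04). Prg4a, a joint surface lubricant, had 1539 and 1154 CPM in OMP, against 179 and 68.8 in CMP and 668 and 618 in osteoblasts. The contrast of prg4a was 2.26 (SE 0.33, adjusted p = 0.00475). Prg4b had 177 and 97.0 CPM in OMP, against 29.6 and 7.70 in CMP and 34 and 65.5 in osteoblasts. The contrast of prg4b was 2.17 (SE 0.47, adjusted p = 0.0339) and was not called once replicate 2 of CMP (adjusted p = 0.0671), replicate 1 of OMP (0.219) or replicate 1 of osteoblasts (0.0622) was left out. In both lubricins CMP was the lowest group, so osteoblasts were nearer: against them the log2 fold changes were 1.07 (adjusted p = 0.171, or 0.0224 with the replicate block) for prg4a and 1.45 (adjusted p = 0.196) for prg4b. The list held 3 calls without CMP replicate 2, OMP replicate 1 or OMP replicate 2.

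Loxl3a, the single call among 7 lysyl oxidase genes that cross-link collagen and elastin, also had CMP lowest, with 97.9 and 65.8 CPM in OMP, against 4.86 and 2.34 in CMP and 40.2 and 38.7 in osteoblasts. The contrast of loxl3a was 2.79 (SE 0.33, adjusted p = 0.00166). The forkhead gene foxd1, the single call among 18 Fox genes, had the same order, with 93.6 and 58.5 CPM in OMP, against 9.05 and 8.03 in CMP and 48.1 and 28.4 in osteoblasts. The contrast of foxd1 was 2.07 (SE 0.33, adjusted p = 0.00704), and was not called once replicate 1 of OMP (adjusted p = 0.0737) was left out. Cdh7, a classical cadherin, had 123 and 105 CPM in OMP, against 20.3 and 11.9 in CMP and 51.0 and 51.3 in osteoblasts. The contrast of cdh7 was 1.99 (SE 0.28, adjusted p = 0.00417). OMP exceeded CMP in the 3 genes by log2 fold changes of 4.53 (adjusted p = 0.00366), 3.15 (adjusted p = 0.00789) and 2.83 (adjusted p = 0.00633), and osteoblasts by 1.05 (adjusted p = 0.147, or 0.0204 with the replicate block), 0.99 (adjusted p = 0.194, or 0.0167 with the replicate block) and 1.15 (adjusted p = 0.0724, or 0.00765 with the replicate block).

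Metalloproteinases and their ADAMTS-like relatives gave 4 higher and 1 lower among 30, all 5 outside the other libraries (median 0.36). Only mmp23bb and adamtsl7 were called in both pairwise tests. Against CMP the edgeR fit gave adjusted p of 0.074 for adamts2, 0.102 for adamtsl3 and 0.060 for adamts10. Mmp23bb had 24.9 and 33.3 CPM in OMP, against 2.87 and 3.85 in CMP and 2.94 and 1.60 in osteoblasts. The contrast of mmp23bb was 3.41 (SE 0.40, adjusted p = 0.00166), with log2 fold changes of 3.10 (adjusted p = 0.0119) against CMP and 3.72 (adjusted p = 0.00204) against osteoblasts. Adamtsl7 had 24.1 and 17.7 CPM in OMP, against 0.221 and 3.18 in CMP and 0.327 and 0.458 in osteoblasts. The contrast of adamtsl7 was 4.53 (SE 0.60, adjusted p = 0.00182), and its 199 OMP reads against 3 in osteoblasts give a ratio of 49.6 (16.7 to 242.0). Adamts2, which cleaves the amino end of fibrillar procollagens, had 370.4 and 392 CPM in OMP, against 152 and 191 in CMP and 82.8 and 94.6 in osteoblasts. The contrast of adamts2 was 1.63 (SE 0.23, adjusted p = 0.00395). Adamtsl3 had a log2 contrast of 2.91, adjusted p = 0.00525. With the replicate block 6 were higher and 2 lower.

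Of 32 fin mesenchyme genes 6 were higher and 2 lower (median 0.80), with fibina, cxcl12a, twist2 and dcn above all others and dpt below. Summed over the list, OMP lay between the groups despite the positive median. The sums were 11350 and 13600 CPM in OMP, 19420 and 22510 in CMP and 4043 and 3729 in osteoblasts. The list held 5 calls without CMP replicate 1 and 4 without CMP replicate 2 or OMP replicate 1, and with the replicate block 15 were higher and 2 lower. Among 21 chemokines and receptors 6 were higher and none lower by edgeR or by DESeq2 (median 0.91), 4 with OMP above: ccl25b, cxcl12a, cxcl8a and ackr4b. Cxcl12a, the stromal chemokine that guides cells bearing its receptor, had 990.1 and 617 CPM in OMP, against 539 and 517 in CMP and 78.2 and 53.6 in osteoblasts. The contrast of cxcl12a was 2.11 (SE 0.26, adjusted p = 0.00208). Cxcl8a had 42.7 and 15.9 CPM in OMP, against 12.4 and 5.69 in CMP and 2.94 and 1.15 in osteoblasts. The contrast of cxcl8a was 2.79 (SE 0.54, adjusted p = 0.019) and was not called once replicate 2 of CMP (adjusted p = 0.067), replicate 1 of OMP (0.181) or replicate 2 of osteoblasts (0.0568) was left out. Against CMP the log2 fold changes were 0.61 (adjusted p = 0.575) for cxcl12a and 1.70 (adjusted p = 0.261, or 0.0141 with the replicate block) for cxcl8a. Ccl25b alone of the chemokine list was called in both pairwise tests. The list held 3 calls without CMP replicate 2 and 3 without osteoblast replicate 2.

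Integrins and the related itgbl1 gave 5 higher and 1 lower among 20 (median 0.74), with itga8, itga11a, itga6b and itgbl1 above all others, but the list rested on all libraries. It held no call without CMP replicate 1, 2 without CMP replicate 2 or either OMP replicate, and 4 and 3 without osteoblast replicate 1 and 2. No gene of the integrin list was called in both pairwise tests. Itga8, the alpha chain of a receptor for several matrix proteins, had 120.1 and 107 CPM in OMP, against 22.5 and 37.3 in CMP and 18.3 and 3.44 in osteoblasts. The contrast of itga8 was 2.68 (SE 0.46, adjusted p = 0.0104) and was not called once replicate 1 of CMP (adjusted p = 0.0585) was left out. Itga11a, of a collagen receptor, had 72.5 and 58.6 CPM in OMP, against 24.1 and 27.4 in CMP and 19 and 13.7 in osteoblasts. The contrast of itga11a was 1.68 (SE 0.29, adjusted p = 0.0105) and was not called once replicate 1 of CMP (adjusted p = 0.0585) or replicate 1 of OMP (0.0932) was left out. Of 12 genes of potassium channels and their interacting proteins 3 were called, all above (median -0.26). Only kcnip3a of them was called in both pairwise tests. Kcnd1 had 44.6 and 37.8 CPM in OMP, against 17.9 and 14.1 in CMP and 2.94 and 4.12 in osteoblasts. The contrast of kcnd1 was 2.43 (SE 0.33, adjusted p = 0.00336). Kcnip3a had 8.75 and 6.53 CPM in OMP, against 0.221 and 0.167 in CMP and 1.64 and 0.458 in osteoblasts. The contrast of kcnip3a was 4.03 (SE 0.64, adjusted p = 0.00416). Its 73 OMP reads against 2 in CMP give a ratio of 38.6 (exact 95% counting interval 10.3 to 325.0). Kcna4 had a log2 contrast of 2.33, adjusted p = 0.0268, and was not called once replicate 2 of CMP (adjusted p = 0.0808), replicate 1 of OMP (0.134) or replicate 2 of osteoblasts (0.0687) was left out.

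Fewer genes had their lowest level in OMP. The 14 with the largest distance to the nearer group were pcdh7b, htra3a, dpt, pag1, bcar3, col27a1a, pcolce2a, znf385b, wnk4b, pcmtd1, adamts10, plod2, chad and dlx4a. Of these, 7 were called in both pairwise tests, and 6 were called without any 1 library (pcdh7b, dpt, bcar3, col27a1a, plod2 and chad). Pcdh7b, a protocadherin, had 1.37 and 0.797 CPM in OMP, against 22.3 and 23.8 in CMP and 13.4 and 17 in osteoblasts. The contrast of pcdh7b was -4.16 (SE 0.53, adjusted p = 0.00214). Dpt, dermatopontin, a matrix protein that binds decorin, had 50.1 and 71.4 CPM in OMP, against 272 and 471 in CMP and 303 and 554 in osteoblasts. The contrast of dpt was -2.71 (SE 0.38, adjusted p = 0.00404). In both genes CMP and osteoblasts had levels of the same order and OMP stood far below. Bcar3, an adaptor of integrin signalling, had 6.02 and 5.10 CPM in OMP, against 25 and 20.7 in CMP and 170.1 and 116 in osteoblasts. The contrast of bcar3 was -3.37 (SE 0.37, adjusted p = 0.00119).

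Chad, chondroadherin, a cartilage protein that binds integrins, had 24.1 and 37.1 CPM in OMP, against 115 and 99.6 in CMP and 238 and 292 in osteoblasts. The contrast of chad was -2.45 (SE 0.31, adjusted p = 0.00215). Col27a1a, a fibrillar collagen of cartilage, had 4.92 and 3.82 CPM in OMP, against 18.6 and 15.6 in CMP and 73.9 and 73.1 in osteoblasts. The contrast of col27a1a was -3.03 (SE 0.37, adjusted p = 0.00194). In both, osteoblasts were highest and OMP lowest, with log2 fold changes against CMP of -1.80 (adjusted p = 0.0215) and -1.98 (adjusted p = 0.0379). Wnk4b, a kinase that regulates ion transport, had 12.3 and 4.30 CPM in OMP, against 78.6 and 43.3 in CMP and 32.7 and 26.8 in osteoblasts. The contrast of wnk4b was -2.42 (SE 0.49, adjusted p = 0.0238) and was not called once replicate 1 of CMP (adjusted p = 0.0829) or replicate 2 of OMP (0.188) was left out. Adamts10 had 7.66 and 13.2 CPM in OMP, against 28.9 and 46.2 in CMP and 64.8 and 79.3 in osteoblasts. The contrast of adamts10 was -2.29 (SE 0.38, adjusted p = 0.00948) and was not called once replicate 1 of OMP (adjusted p = 0.0762) was left out. Htra3a, a secreted serine protease, had 1.92 and 1.75 CPM in OMP, against 14.4 and 30.8 in CMP and 11.5 and 13.7 in osteoblasts. The contrast of htra3a was -3.20 (SE 0.56, adjusted p = 0.0116) and was not called once replicate 1 of OMP (adjusted p = 0.0615) or replicate 2 of OMP (0.109) was left out. Pag1 (log2 contrast -2.64, adjusted p = 0.0151) was not called once replicate 2 of CMP (adjusted p = 0.0543) or replicate 2 of OMP (0.181) was left out, and znf385b (-2.06, adjusted p = 0.0411) and pcmtd1 (-1.93, adjusted p = 0.0452) were not called without any 1 of the 6 libraries.

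**Figure D4:**
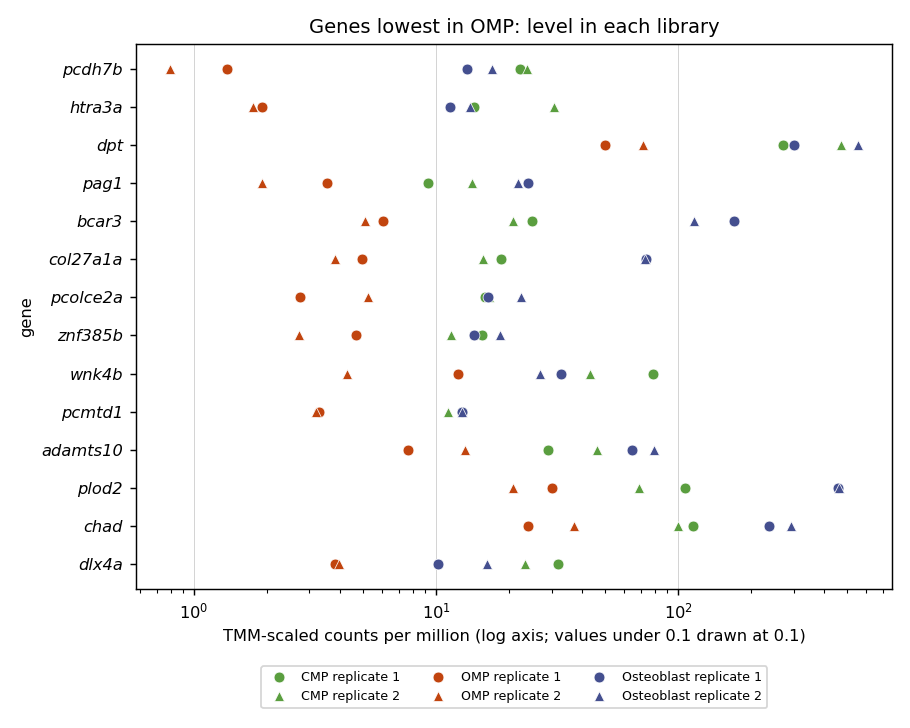
TMM-scaled CPM on a log axis for the 14 genes lowest in OMP by distance to the nearer group, 1 row per gene and 1 point per library (circles replicate 1, triangles replicate 2). The genes were chosen for having both OMP points (red) to the left of all 4 other points. OMP levels range from 0.797 CPM in pcdh7b to 71.4 in dpt.

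Homeobox genes of the Dlx family, which act in fin and skeletal patterning and in osteoblasts, gave 3 called genes among 8 tested, all with OMP below the other libraries. The family was counted after its values were seen. The 5 not called had OMP inside the range of the other libraries and log2 contrasts from -1.50 to -0.19. Dlx3b had 99.0 and 91.3 CPM in OMP, against 620.3 and 465 in CMP and 305 and 252 in osteoblasts. The contrast of dlx3b was -2.03 (SE 0.27, adjusted p = 0.00269). Dlx5a had 70.31 and 63.9 CPM in OMP, against 262 and 196 in CMP and 210.1 and 230.1 in osteoblasts. The contrast of dlx5a was -1.74 (SE 0.27, adjusted p = 0.0061) and was not called once replicate 2 of OMP (adjusted p = 0.0644) was left out. Dlx4a had 3.83 and 3.98 CPM in OMP, against 31.8 and 23.3 in CMP and 10.1 and 16.3 in osteoblasts. The contrast of dlx4a was -2.28 (SE 0.44, adjusted p = 0.019) and was not called once replicate 1 of CMP (adjusted p = 0.0731), replicate 1 of OMP (0.103), replicate 2 of OMP (0.152) or replicate 2 of osteoblasts (0.0513) was left out. Dlx3b and dlx5a were called against each group, with log2 fold changes of -2.51 (adjusted p = 0.00511) against CMP and -1.55 (adjusted p = 0.00748) against osteoblasts for dlx3b and -1.77 (adjusted p = 0.0142) against CMP and -1.71 (adjusted p = 0.0049) against osteoblasts for dlx5a. Cx43, the gap junction gene whose loss shortens fin ray segments in zebrafish, had 106 and 78.2 CPM in OMP, against 403 and 432 in CMP and 271 and 178 in osteoblasts. The contrast of cx43 was -1.74 (SE 0.29, adjusted p = 0.0093) and was not called once replicate 2 of OMP (adjusted p = 0.1) was left out. Cx43 was also called against each group, with log2 fold changes of -2.18 (adjusted p = 0.00941) against CMP and -1.29 (adjusted p = 0.0308) against osteoblasts.

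Of 43 genes of the secretory pathway and collagen processing none was higher (edgeR, DESeq2 and the fit with the block alike) and 4 were lower, each with OMP below all others (8 at an unadjusted p under 0.05, list median -0.04). All 4 act on collagen itself. Plod2, a lysyl hydroxylase that sets the type of collagen cross-link, had 30.1 and 20.7 CPM in OMP, against 107 and 69.3 in CMP and 458 and 464 in osteoblasts. The contrast of plod2 was -2.997 (SE 0.33, adjusted p = 0.00119), with log2 fold changes of -1.80 (adjusted p = 0.0257) against CMP and -4.19 (adjusted p = 9.9e-05) against osteoblasts. Pcolceb had 35.6 and 60.4 CPM in OMP, against 145 and 69.9 in CMP and 878 and 821 in osteoblasts. The contrast of pcolceb was -2.64 (SE 0.38, adjusted p = 0.00424). Pcolcea had 38.0 and 49.4 CPM in OMP, against 66.2 and 110.4 in CMP and 133 and 178 in osteoblasts. The contrast of pcolcea was -1.42 (SE 0.32, adjusted p = 0.0412) and was not called once replicate 1 of CMP (adjusted p = 0.0545), replicate 2 of CMP (0.142), replicate 1 of OMP (0.232), replicate 2 of OMP (0.15) or replicate 2 of osteoblasts (0.0962) was left out. Pcolce2a had 2.74 and 5.26 CPM in OMP, against 15.9 and 16.6 in CMP and 16.4 and 22.5 in osteoblasts. The contrast of pcolce2a was -2.09 (SE 0.44, adjusted p = 0.0316) and was not called once replicate 1 of CMP (adjusted p = 0.0862), replicate 2 of CMP (0.0897), replicate 1 of OMP (0.172), replicate 2 of OMP (0.0893) or replicate 2 of osteoblasts (0.0757) was left out. The pcolce genes encode enhancers of the protease that trims the carboxyl end of procollagen. None of them was called in both pairwise tests. Against CMP the edgeR fit without the block gave log2 fold changes of -1.15 (adjusted p = 0.237) for pcolceb and -1.01 (adjusted p = 0.253) for pcolcea. The list held 2 calls without CMP replicate 1 or 2, OMP replicate 1 or 2 or osteoblast replicate 2.

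Osteoblast genes showed how a called contrast can differ from a position outside the groups. Of 29 tested, 3 were higher and 11 lower (median log2 contrast -1.26, the lowest of the 48 lists), but only 2 were above all others and 3 below (dlx3b, dlx5a and scpp1). The list held 9 calls without OMP replicate 1 and 8 without OMP replicate 2, instead of 14. The other 8 lower genes (col10a1a, col10a1b, bglap, bglapl, entpd5a, phospho1, panx3 and ifitm5) are markers of osteoblasts and mineralization in which osteoblasts were far above both other groups. Scpp1, a secreted phosphoprotein of mineralized tissue, was lowest in OMP by a small margin, with 0.821 and 0.319 CPM in OMP, against 1.32 and 0.837 in CMP and 309 and 254 in osteoblasts. Its log2 fold change against CMP was -1.01 (adjusted p = 0.809).

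The 2 osteoblast-list genes above all others act on pyrophosphate and phosphate. Enpp1, which makes the mineralization inhibitor pyrophosphate, had 734 and 799 CPM in OMP, against 208 and 282 in CMP and 359 and 452 in osteoblasts. The contrast of enpp1 was 1.28 (SE 0.23, adjusted p = 0.0133), and was not called once replicate 1 of CMP (adjusted p = 0.0731), replicate 1 of OMP (0.0629) or replicate 2 of OMP (0.096) was left out. Alpl, the phosphatase that breaks pyrophosphate down, had 161 and 97.4 CPM in OMP, against 36.4 and 76.5 in CMP and 42.9 and 30.0 in osteoblasts. The contrast of alpl was 1.505 (SE 0.35, adjusted p = 0.046), and was not called once replicate 1 of CMP (adjusted p = 0.141), replicate 1 of OMP (0.338), replicate 1 of osteoblasts (0.0544) or replicate 2 of osteoblasts (0.127) was left out. The log2 fold change of enpp1 was 1.64 (adjusted p = 0.0176) against CMP and 0.92 (adjusted p = 0.0809, or 0.00315 with the replicate block) against osteoblasts. For alpl it was 1.18 (adjusted p = 0.273) against CMP and 1.83 (adjusted p = 0.0284) against osteoblasts. Bgnb, a biglycan, had 2.74 and 0.637 CPM in OMP, against 3.53 and 3.35 in CMP and 234 and 180.3 in osteoblasts. The contrast of bgnb was -4.15 (SE 0.52, adjusted p = 0.00219), so that OMP overlapped neither group but lay close to CMP, with a log2 fold change of -1.20 (adjusted p = 0.58).

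Lists of basic cell functions are given beside the 3.52% of all genes called, a share at which lists of this size would hold few calls. By edgeR no gene was called among 22 Hox genes, 34 cell cycle genes, 94 nuclear genes of oxidative phosphorylation and 23 genes of glycolysis and glucose transport. DESeq2 and the fit with the replicate block called none of them either, and the counts at an unadjusted p under 0.05 were 2, 1, 0 and 2. Of 74 ribosomal protein genes none was called by edgeR or DESeq2, 1 had an unadjusted p under 0.05 and 1 was lower with the block. Of 25 ephrin and Eph receptor genes none was called by edgeR or DESeq2, 7 had an unadjusted p under 0.05, and the block called 3 higher and 1 lower. Among 10 Sox genes edgeR called none, with 2 at an unadjusted p under 0.05, 2 lower with the block and 1 lower by DESeq2. Among 5 Tbx genes none was called by edgeR or DESeq2, with 4 at an unadjusted p under 0.05 and 1 higher with the block.

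**Figure D5:**
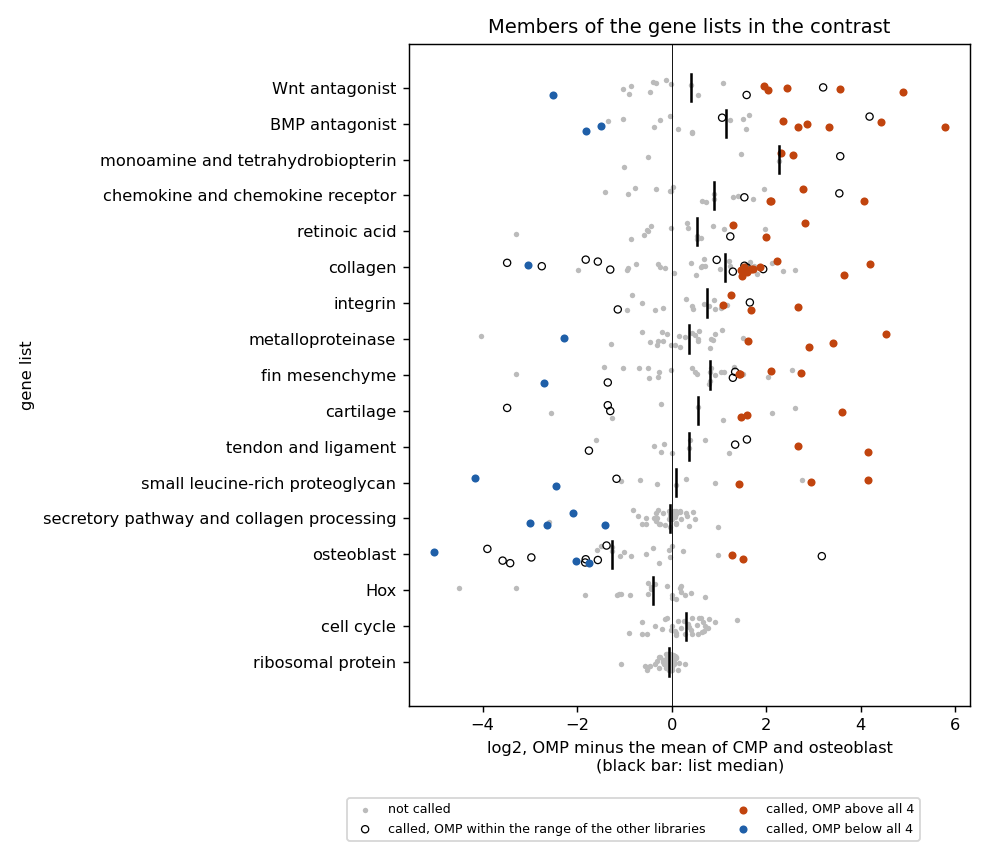
Each row is a gene list and each point a tested member, placed by its log2 contrast (OMP minus the mean of CMP and osteoblasts); black bars mark list medians. Red points are called genes with OMP above all 4 other libraries, blue points those with OMP below, and open circles called genes with OMP inside the range, which make up most of the osteoblast calls (9 of 14).

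Markers of other cells that a sort could carry over were set beside these results. Of 9 marker lists, the summed level put OMP outside both other groups for 2. Pigment cell markers (2 tested) summed to 22.4 to 27.2 CPM in OMP, against 7.36 to 10.2 in CMP and 2.29 to 3.27 in osteoblasts. Mural cell markers (18 tested) summed to 719 to 882 CPM in OMP, against 1020.0 to 1080.0 in CMP and 1430.0 to 1740.0 in osteoblasts. Ltk was the called pigment marker, with 17.5 and 25 CPM in OMP, against 7.51 and 6.53 in CMP and 0.654 and 2.29 in osteoblasts. The contrast of ltk was 2.67 (SE 0.44, adjusted p = 0.00877), and it was not called once replicate 2 of OMP (adjusted p = 0.072) was left out; tyr had no read in any library and mitfa 1 read in all. Of the 18 mural markers 1 was called higher and 1 lower. Although their summed level was lowest in OMP, their median log2 contrast was positive (0.41, or 0.22 with a gene that had no read in a group set at its bound). The higher call was rgs5a (log2 contrast 3.76), with 417 reads in OMP and 1 in osteoblasts. In rgs5a OMP lay inside the range of the other libraries. The mural call with OMP below was myl9a, with 11.2 and 6.85 CPM in OMP, against 21.0 and 37.8 in CMP and 49.4 and 54.1 in osteoblasts. The contrast of myl9a was -2.14 (SE 0.40, adjusted p = 0.0167), not called once replicate 2 of CMP (adjusted p = 0.0587) or replicate 2 of OMP (0.178) was left out.

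Epidermal markers (25 tested) summed in order from CMP at 10100.0 to 10700.0 CPM through OMP at 6000.0 to 6360.0 to osteoblasts at 1930.0 to 2680.0, and leukocyte markers (8 tested) were at 95.9 to 169.0 CPM in CMP, 265.0 to 403.0 in OMP and 319.0 to 478.0 in osteoblasts. No epidermal, leukocyte, osteoclast (5), endothelial (3), muscle (1) or erythrocyte (3) marker was called by edgeR, with 3, 3, 2, 0, 0 and 2 at an unadjusted p under 0.05. DESeq2 called 1 epidermal marker higher and 1 erythrocyte marker lower, and the block called 2 epidermal, 2 leukocyte and 2 osteoclast markers higher. Of 7 nerve and glia markers ngfra was called, with 8.21 and 3.98 CPM in OMP, against 0.221 and 0.837 in CMP and 0.327 and 0.687 in osteoblasts, and its call was lost once replicate 1 of CMP (adjusted p = 0.0793), replicate 2 of CMP (0.0543), replicate 1 of OMP (0.162), replicate 1 of osteoblasts (0.0787) or replicate 2 of osteoblasts (0.0906) was left out. The defining markers mpeg1.1, cdh5, elavl3, tyr, myog, actc1b and gata1a had no read in any library. Other defining markers had reads. Endothelial kdrl had 17 and 10 in OMP, against 2 and 1 in CMP and 8 and 6 in osteoblasts. Pecam1 had 0 and 3 in OMP, against 2 and 12 in CMP and 2 and 0 in osteoblasts. Hbaa1 had 2 and 37 in OMP, against 2 and 22 in CMP and 0 and 6 in osteoblasts. The part of other cells in the values above was not tested.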

How the data were processed

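RNA from 6 libraries of sorted fin cells was analysed as raw counts per RefSeq transcript, deposited by the authors in 1 table of 75811 rows, 6 of them transgenes. Per the submitters' processing notes, reads were handled with HISAT2 2.2.1 and featureCounts 2.0.3 on GRCz11. How strand was treated in counting is not stated in those notes, so the reads of overlapping or antisense genes cannot be separated and near-identical copies are uncertain. The RPKM and TPM values and transcript lengths that the authors deposited beside the counts were not used.

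For each gene symbol the transcript with the most reads was kept (30837 genes, 4 transgenes; 2 transgenes with empty cells were left out). The main test was the quasi-likelihood test of edgeR 4.0.16 in R 4.3.3, after TMM and a filterByExpr filter on the groups, with group as the only term (3 residual degrees of freedom, biological coefficient of variation 0.377). Tests were two-sided with Benjamini-Hochberg adjustment over 13399 genes, at a threshold of 0.05. The current edgeR fit was chosen over the earlier (legacy) one after calls from both had been seen, because it matched earlier processing of these data; it calls more genes (365 higher and 106 lower against 318 and 89). SE is the size of the log2 difference over the square root of its F value. Values from 1 to 3 reads in a group are ratios with exact 95% counting intervals, and bounds use 3 reads over the group; both cover counting error only.

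Same-numbered libraries deviated together from their group means (correlations 0.337 for CMP and OMP, 0.296 for CMP and osteoblasts, 0.383 for OMP and osteoblasts), so the numbers were taken to pair the libraries. The main fit did not use this pairing. Values with the number as a block are given for some, not all, of the results that the block changes. Alternatives were RLE size factors, DESeq2 1.42.0, no filter, the block, the mean over transcripts, the legacy fit and each library left out.

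The comparison, the 48 lists and the naming rule were chosen with earlier results of these data known. The rule takes sp7 and sox9a, the 14 genes in each direction farthest from the nearer group (called, outside, mean log2 CPM of at least 3, with a gene name that is not a clone name), up to 4 outside members per list by p, and members behind list counts of 5 or fewer. One gene is not reported here and was left out of the lists. Lists are described by counts and medians, with no set test. No sequences or coordinates are given because no GRCz11 annotation was used here.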

Additional observations from a re-analysis of the deposited data

How the results depend on the processing

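No gene called in the contrast changed sign under any alternative. Of the 471 calls, 461 held with RLE size factors, 462 with DESeq2, 464 without the filter, 442 with the mean over transcripts, 404 with the legacy fit (chosen after the data were seen) and 471 with the replicate block. The counts of genes higher, lower, above and called, and below and called were 365, 106, 283 and 65. The replicate block gave 697, 267, 440 and 136, with 200 higher and 57 lower in both pairwise tests. It changed the call of 1 of the 116 named genes, sox9a. DESeq2 gave 182 lower, 106 below, and 89 higher and 30 lower in both pairwise tests. Without the filter 88 were higher in both pairwise tests. The legacy fit gave 318, 89, 243 and 56, with 37 and 13 in both pairwise tests.

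Leaving out each library gave 190 to 317 genes higher, 35 to 84 lower, 166 to 242 above, 23 to 52 below, 0 to 48 higher in both pairwise tests and 0 to 12 lower in both. The lowest values came without CMP replicate 1 for genes higher, above and both pairwise counts, and without OMP replicate 2 for genes lower and below. A lone library was assumed to vary like the other groups. Of the 116 named genes, 22 to 46 lost significance, fewest without osteoblast replicate 1 and most without OMP replicate 1. The causes were not tested. Setting genes with no read in a group at their bound moved list medians by at most 0.71.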

Other observations

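Among genes below the level limit for the 14 highest, 4 with far more reads in OMP than in the other groups were chosen after their values were seen, so their values are a description. Fabp1b.2, a fatty acid binding protein of the liver type, had 252 reads in OMP, 1 in CMP and none in osteoblasts, a ratio of 267 to CMP (exact 95% counting interval 47.4 to 10600.0) and at least 62.8-fold above osteoblasts. Zfpm2b, a FOG-family cofactor of GATA factors, had 209 reads in OMP, 2 in CMP and none in osteoblasts, a ratio of 111 to CMP (30.2 to 919.0) and at least 52.1-fold above osteoblasts. Ptprt, a receptor tyrosine phosphatase, had 91 and 173 reads in OMP, 6 and 15 in CMP and none in osteoblasts, at least 65.8-fold higher in OMP than in osteoblasts. Ntng2b, a netrin-G, had 63 and 128 reads in OMP, 2 and 6 in CMP and none in osteoblasts, at least 47.6-fold higher in OMP than in osteoblasts.

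Symbols ending in a and b often mark gene copies from the genome duplication of teleost fish. Of 1292 such pairs with both members tested, 82 had a member outside and called, and 18 had both members called. In 8 pairs both members were outside on the same side, for example csf1a (log2 contrast 2.17, SE 0.32, adjusted p = 0.00461) and csf1b (log2 contrast 2.57, SE 0.26, adjusted p = 0.000886), which encode a growth factor of macrophages and osteoclasts. Neither csf1 gene was called against CMP, with log2 fold changes of 1.31 (adjusted p = 0.146) and 1.03 (adjusted p = 0.158). Connective tissue growth factor genes ctgfa (1.42, adjusted p = 0.0351) and ctgfb (1.18, adjusted p = 0.0309) were another such pair. These were not called against CMP either, with log2 fold changes of 1.03 (adjusted p = 0.282) and 1.19 (adjusted p = 0.0904). Ctgfa was not called once replicate 1 of CMP (adjusted p = 0.136), replicate 2 of CMP (0.0576), replicate 2 of OMP (0.421), replicate 1 of osteoblasts (0.0787) or replicate 2 of osteoblasts (0.0722) was left out. Ctgfb was not called whichever library was left out (adjusted p from 0.0753 to 0.204). In 1 pair the members lay on opposite sides. Tmem119a had 6.84 and 6.21 CPM in OMP, against 8.39 and 7.19 in CMP and 587 and 606 in osteoblasts. The contrast of tmem119a was -3.39 (SE 0.30, adjusted p = 0.00048). Tmem119b had 23.3 and 42.9 CPM in OMP, against 16.6 and 19.7 in CMP and 3.27 and 2.52 in osteoblasts. The contrast of tmem119b was 2.21 (SE 0.38, adjusted p = 0.0109) and was not called once replicate 1 of CMP (adjusted p = 0.0534) or replicate 2 of OMP (0.152) was left out. Tmem119a lay close to CMP, with a log2 fold change of -0.26 (adjusted p = 0.953). For tmem119b the log2 fold change against CMP was 0.87 (adjusted p = 0.511).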
